A study of Macaca mulatta with 136 samples.

Results

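The pigmented and vascular layers behind the retina were compared between the perimacula and the nasal location of the same rhesus macaque eyes. RPE/choroid denotes the retinal pigment epithelium together with the choroid, the vascular tissue beneath it, and the perimacula is the ring of tissue around the macula. Members were the 4 RPE/choroid libraries labelled perimacula and the 4 labelled nasal, 8 of the 32 libraries of the series, each from the right (OD) or left (OS) eye of postmortem animals RM03 and RM04. The animals carried no treatment or engineered allele that the labels name, and each library came from 1 punch with a diameter of 2 mm, dissected away from the neural retina. The distance of the nasal punch from the fovea is not given in the sources used here, and the study's own comparisons left the nasal samples aside.

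The RPE recycles the visual chromophore through enzymes such as RPE65, takes up shed photoreceptor outer segments, holds melanin and pumps ions and water toward the choroid. The choroid holds arteries, veins and a fenestrated capillary bed, and between them fibroblasts, nerves with Schwann cells, immune cells and melanocytes, which like the RPE make melanin but arise from the neural crest. A punch of RPE/choroid therefore averages over several cell types, and in such bulk tissue fewer cells of a type and less RNA per cell cannot be told apart.

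The 8 libraries held 47431833 to 66331817 estimated counts each, summed over 5 lanes of 2 flow cells that both locations shared. Defining RPE genes were high in each of the 8 libraries, with RPE65 at 1520.5 to 6017 CPM, estimated counts scaled to the same total in each library, at the perimacula and 4507 to 8362 CPM at the nasal location. Levels below are CPM after normalization for library composition and are listed in the order RM03 right eye, RM03 left eye, RM04 right eye and RM04 left eye. A log2 fold change is the perimacula against the nasal location, so a positive value means higher at the perimacula.

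Perimacula libraries of the RM03 right eye and the RM04 left eye stood apart from the others in Schwann cell and myelin genes. The summed level of 14 such genes was 12570.0, 799, 1046 and 3651 CPM at the perimacula and 666, 649, 929 and 1021 CPM at the nasal location. The RM03 right eye and the RM04 left eye thus lay above every other library, while the other perimacula libraries lay within or close to the nasal range. PMP2, a fatty acid binding protein of myelin, was at 432, 2.096, 3.26 and 135 CPM at the perimacula and at 1.86, 1.497, 1.82 and 2.93 CPM at the nasal location. PMP2 was the only called gene of the list (log2 fold change 5.73 ± 1.44 (SE), edgeR adjusted p = 0.0463), and its adjusted p was 0.921 without the 2 libraries and 0.108 with the eye as a replicate block. The 14 members were positive with a median log2 fold change of 1.95, which became 0.27 without the 2 libraries. The part of these libraries in the gene results was not tested as a cause. Where a gene described below lost its call without them, its adjusted p from the fit of the remaining libraries is given with its values. For a group of genes the range is given. That fit keeps only the perimacula libraries of the RM03 left and RM04 right eyes. Adjusted p rises with fewer libraries at the same fold change, so a lost call does not by itself show a smaller change. Without the 2 libraries SHOX2, CA2 and PAX6 had log2 fold changes of 3.31, 1.70 and -2.68, against 3.45, 1.54 and -2.04 with them. FLT1 and TFAP2B had -0.58 and 0.98, against -0.65 and 1.25. ACKR1 had 0.73 against 0.92, and PMP2 had 0.46 against 5.73. These genes are examples and were not picked by a rule. Among them CA2 and PAX6 had the larger change without the 2 libraries, and the others had the smaller.

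Of 15789 genes tested with edgeR's quasi-likelihood test, 484 (3.07%) were called at a Benjamini-Hochberg adjusted p under 0.05. Expression was higher at the perimacula for 299 of them (1.89% of tested genes) and higher at the nasal location for 185 (1.17%). Most changes were small. The called genes had a median absolute log2 fold change of 0.455, against 0.174 over tested genes, and 54 passed an absolute log2 fold change of 1, of which 37 were higher at the perimacula and 17 at the nasal location. The median over tested genes was -0.00377 in this fit, whose scaling centres the values near 0. The direction was the same in 4 of 4 eyes for 479 of the called genes, against 5504 of the tested genes. The 4 perimacula values and the 4 nasal values did not overlap for 354 of the called genes, while 1838 of the tested genes did not overlap.

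How many genes were called depended on which eyes entered. With the eye as a replicate block 269 genes were called, 266 of them among the 484. Leaving out the right or left eye of RM03 gave 19 and 195 calls, and leaving out the right or left eye of RM04 gave 38 and 26. Without the 2 myelin-rich perimacula libraries 43 genes were called, 42 of them among the 484, and 39 of the 43 were higher at the perimacula. Of 73 called genes named here, 23 were also called without them. None of the 484 changed direction under any of the 16 alternatives in which it was tested, but no gene was called in all 16. In 15 of the 16 alternatives 10 genes were called, namely BIRC7, FAM69C, GPR143, IGSF8, KIAA0930, MICAL1, SLC22A17, SPHKAP and ZBTB47, higher at the perimacula, and MAB21L1, higher at the nasal location. KIAA0930 lies outside the rule for naming genes and appears here only as part of that count.

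**Figure D1:**
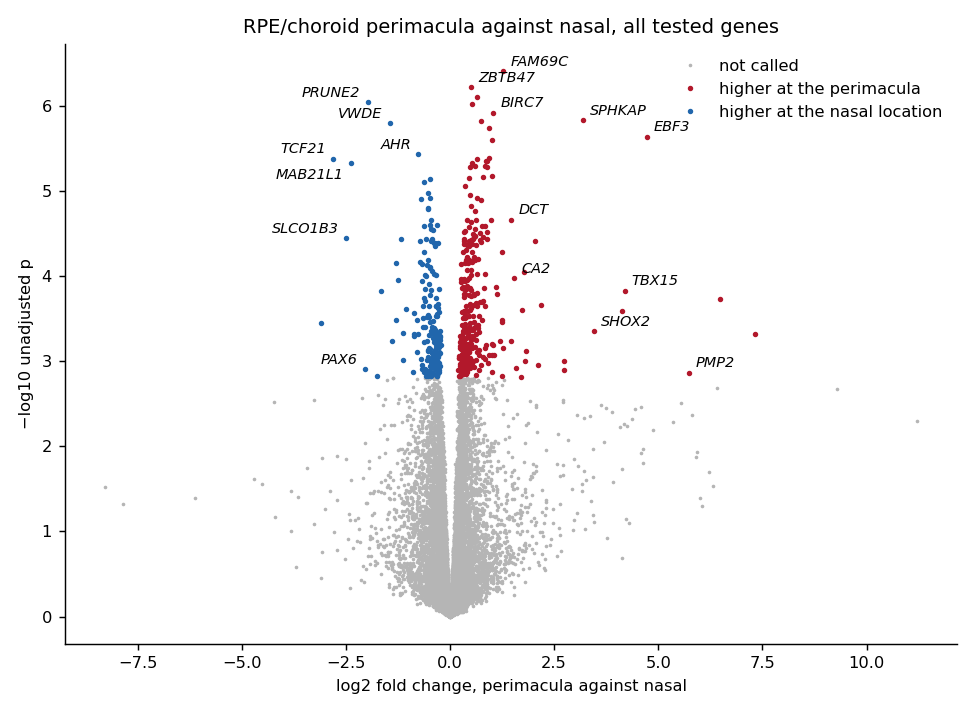
Log2 fold change of the perimacula against the nasal location (x axis) and the negative log10 of the unadjusted p (y axis) for each of the 15789 genes tested in RPE/choroid. Red points mark the 299 called genes that were higher at the perimacula and blue points the 185 that were higher at the nasal location. Large fold changes without a call are grey.

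EBF3 and SHOX2, a pair of developmental transcription factors, were higher at the perimacula in each eye. EBF3 (ENSMMUG00000011447), an early B cell factor that acts in neural and mesenchymal development, was at 4.61, 4.91, 4.26 and 5.54 CPM at the perimacula and 0.0909, 0.394, 0.159 and 0.0647 CPM at the nasal location. The groups did not overlap, and 3 to 20 estimated counts stood behind each nasal value against 269 to 316 behind each perimacula value. The log2 fold change was 4.72 ± 0.62 (SE), with an edgeR adjusted p of 0.00326. SHOX2, a short stature homeobox factor of limb and heart development, was at 6.53, 5.08, 3.18 and 4.08 CPM against 0.0909, 0.0591, 1.04 and 0.345 CPM, and these groups were also separate. It rose by 3.45 ± 0.76 (SE) on the log2 scale (edgeR adjusted p = 0.0287, 0.0501 with the replicate block and 0.167 without the 2 myelin-rich libraries). Both factors come from 14 transcription factors that the study named on samples of this series. The study listed these 2 as macula-specific in the neural retina and left the nasal samples aside. Its tissue and contrast therefore differ from those here, but the list is not independent of these samples. Of the 13 that were tested, EBF3 and SHOX2 were called (15.4%, against 3.07% of all tested genes) and none was called lower. The median log2 fold change was 0.32, or 0.068 without the 2 myelin-rich libraries, where EBF3 was the member still called. VEZF1, a zinc finger factor of blood vessels, had a log2 fold change of -0.29 ± 0.088 (SE) (edgeR adjusted p = 0.0896).

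A pair of further developmental factors, chosen after their values were seen, had separate groups in the same direction, which follows from that choice. TBX15, a T-box factor of mesenchyme, was at 6.77, 6.85, 1.84 and 3.89 CPM against 0.227, 0.177, 0.6195 and 0.367 CPM (log2 fold change 4.19 ± 0.81 (SE), edgeR adjusted p = 0.0154, or 0.082 without the 2 myelin-rich libraries). The step was smallest in the right eye of RM04, as it was for SHOX2. TFAP2B, an AP-2 factor of the neural crest, was at 3.18, 1.89, 3.47 and 4.74 CPM against 1.59, 1.75, 1.06 and 1.17 CPM (log2 fold change 1.25 ± 0.32 (SE), edgeR adjusted p = 0.049), and its adjusted p was 0.0784 with the replicate block and 0.34 without the 2 myelin-rich libraries. In the RM03 left eye the step of TFAP2B was only 0.11 on the log2 scale. In perimacula retina the mean levels of EBF3, SHOX2, TBX15 and TFAP2B were 21.2, 0.0714, 0.387 and 97.4 CPM. The share of retinal RNA in the RPE/choroid values of these factors was not tested.

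Other developmental factors were higher at the nasal location. TCF21 (ENSMMUG00000002871), a basic helix-loop-helix factor of fibroblast and pericyte precursors, was at 1.07, 1.38, 0.554 and 0.206 CPM at the perimacula and 9.298, 9.85, 3.03 and 1.77 CPM at the nasal location. Each eye showed the step, and the groups did not overlap although the animals differed several-fold. The log2 fold change was -2.81 ± 0.39 (SE) with an edgeR adjusted p of 0.00345, which became 0.0659 without the 2 myelin-rich libraries. MAB21L1 (ENSMMUG00000005425), a factor needed for the lens and anterior eye, was at 2.304, 1.16, 1.87 and 1.69 CPM against 7.298, 8.57, 11.7 and 9.34 CPM (log2 fold change -2.37 ± 0.33 (SE), edgeR adjusted p = 0.00345). PAX6, the paired box factor that directs eye formation and is kept in ciliary and neural retinal cells, was at 0.998, 0.823, 0.633 and 2.47 CPM against 2.55, 7.01, 3.33 and 6.21 CPM. The highest perimacula value and the lowest nasal value of PAX6 lay close together, and the log2 fold change of -2.04 ± 0.51 (SE) had an edgeR adjusted p of 0.0442, or 0.0737 with the replicate block and 0.124 without the 2 myelin-rich libraries. MEIS1, a homeobox factor, and DACH1, a dachshund family factor, both chosen after their values were seen, had log2 fold changes of -1.40 ± 0.32 (SE) and -0.67 ± 0.12 (SE), and the adjusted p of MEIS1 was 0.0528 with the replicate block. Their adjusted p was 0.24 and 0.082 without the 2 myelin-rich libraries. In nasal retina the mean levels of TCF21, MAB21L1, PAX6, MEIS1 and DACH1 were 4.49, 85.2, 342, 142 and 73.6 CPM. The share of retinal RNA in the RPE/choroid values of these genes was not tested.

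PAX6 was the only called gene among 15 tested genes that set the axes of the eye (6.67%, against 3.07% of all tested genes), and the median of that list was -0.023. Without the 2 myelin-rich libraries the adjusted p of PAX6 was 0.124 and the median was -0.14. NR2F1, a nuclear receptor that is graded along the nasal to temporal axis, was at 58.1, 43.7, 38.3 and 45.1 CPM at the perimacula and 29.7, 31.4, 36.9 and 30.2 CPM at the nasal location. Its groups were separate, with a log2 fold change of 0.52 ± 0.13 (SE), yet it was not called (edgeR adjusted p = 0.0503, or 0.0772 with the replicate block and 0.404 without the 2 myelin-rich libraries). Without those libraries the log2 fold change of NR2F1 was 0.36, and in the RM04 right eye its step was only 0.053 on the log2 scale. FOXD1, which marks the temporal retina, was at 5.85, 5.85, 3.54 and 7.04 CPM against 3.09, 4.16, 3.66 and 3.82 CPM, which overlapped (log2 fold change 0.59 ± 0.23 (SE), edgeR adjusted p = 0.164). ALDH1A1, a retinoic acid synthesis enzyme named for the highest CPM of the list, had a log2 fold change of -0.0097 ± 0.11 (SE).

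**Figure D2:**
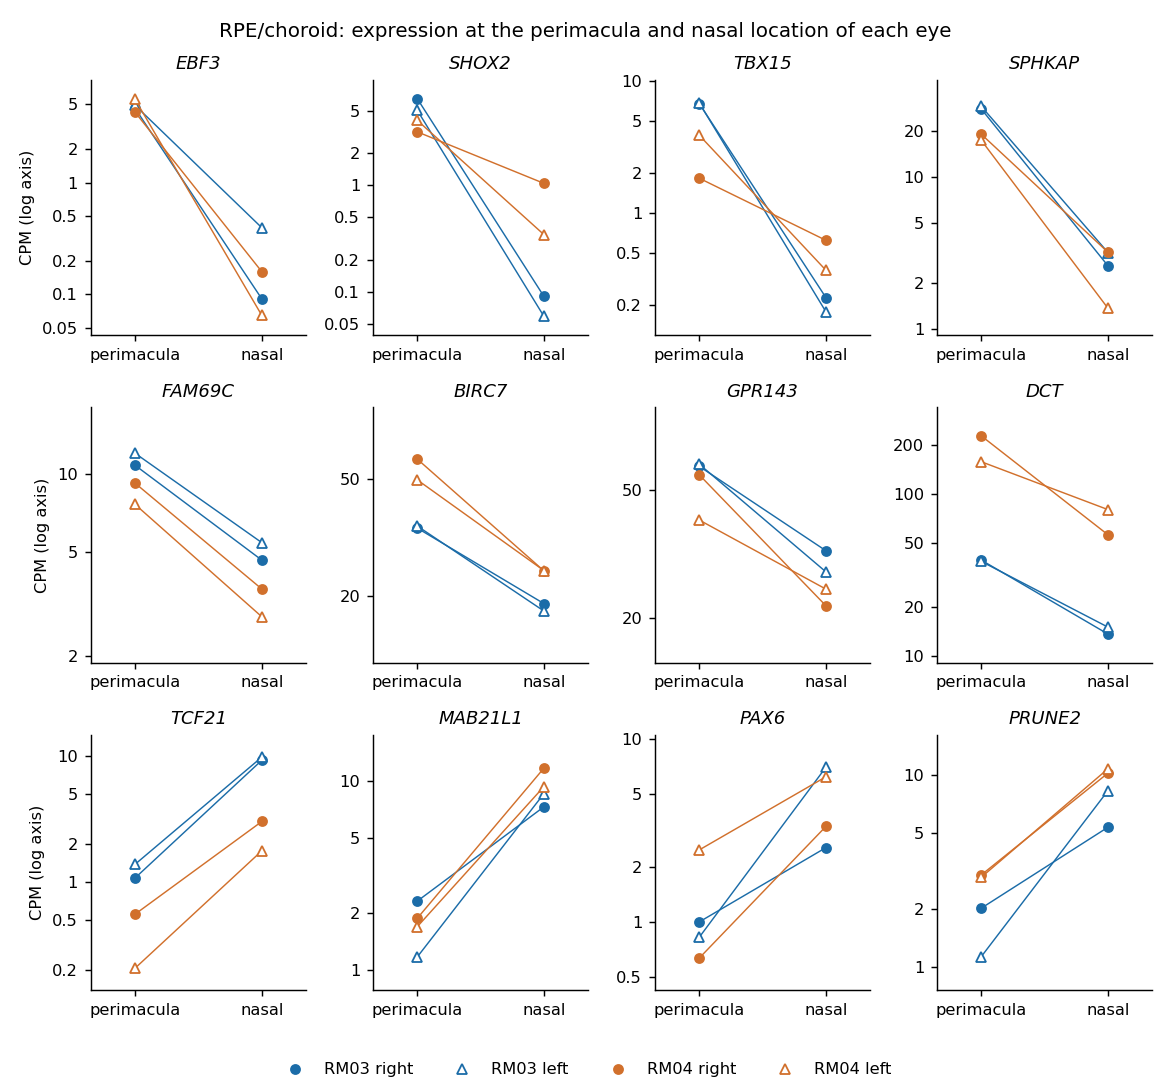
CPM (log axis) of 12 genes at the perimacula and the nasal location of each RPE/choroid eye, with a line for each eye. Blue is RM03 and orange RM04, filled circles are right eyes and open triangles left eyes. The lines of EBF3, SHOX2, TBX15, SPHKAP, FAM69C, BIRC7, GPR143 and DCT fall in 4 of 4 eyes, and those of TCF21, MAB21L1, PAX6 and PRUNE2 rise.

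Some pigment genes were higher at the perimacula. Among 13 genes of melanin synthesis and the melanosome, 4 were called higher (30.8%, against 1.89% of all tested genes called higher) and none lower, 11 had a positive log2 fold change, and the median was 0.31 against -0.00377 over tested genes. GPR143, the melanosomal receptor altered in ocular albinism, was at 59.2, 60.05, 55.7 and 40.3 CPM at the perimacula and 32.4, 27.9, 21.9 and 24.6 CPM at the nasal location, without overlap. The log2 fold change was 1.02 ± 0.13 (SE) (edgeR adjusted p = 0.00331). DCT, the dopachrome tautomerase, was at 38.99, 38.3, 227 and 157 CPM against 13.6, 15.1, 55.8 and 79.8 CPM. The groups of DCT overlapped because RM04 exceeded RM03 at both locations, but the perimacula was higher in 4 of 4 eyes (log2 fold change 1.47 ± 0.24 (SE), edgeR adjusted p = 0.00774). TYR, the first enzyme of melanin synthesis, was at 748, 770.2, 832 and 617 CPM against 458, 473, 552 and 634 CPM. TYR was higher at the perimacula in each eye except the left eye of RM04, with a log2 fold change of 0.49 ± 0.11 (SE) (edgeR adjusted p = 0.0322, or 0.0621 with the replicate block). PMEL, which forms the fibrils that melanin is laid on, was at 4372, 4891, 3324 and 2805 CPM against 2404, 2888, 2434 and 2541 CPM (log2 fold change 0.54 ± 0.13 (SE), edgeR adjusted p = 0.0404, or 0.0724 with the replicate block). MITF, the master regulator of pigment cells, had a log2 fold change of 0.015 ± 0.19 (SE), and MYO7A, a myosin that carries RPE melanosomes, one of -0.66 ± 0.20 (SE), both without a call. Without the 2 myelin-rich libraries the list's median was 0.44, GPR143 and DCT were still called, and the adjusted p of TYR and PMEL was 0.0547 and 0.124.

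Outside that list, BIRC7 (livin), an inhibitor of apoptosis found in melanocytic cells and named by its p, was at 34.02, 34.6, 58.5 and 49.7 CPM at the perimacula and 18.8, 17.7, 24.3 and 24.4 CPM at the nasal location (log2 fold change 1.03 ± 0.13 (SE), edgeR adjusted p = 0.00278). A further 4 genes known from melanocytes were chosen after their values were seen, so that their shared direction follows from the choice. PAX3, a neural crest and melanocyte factor, was at 102, 107, 125 and 103 CPM against 68.7, 72.05, 79.7 and 92.3 CPM (log2 fold change 0.48 ± 0.11 (SE)). EDNRB, the endothelin receptor that melanocyte precursors need, was at 1386, 1474, 1789 and 1202 CPM against 860.3, 962, 1002 and 1154 CPM (log2 fold change 0.56 ± 0.12 (SE)). The groups of PAX3 and EDNRB did not overlap. CITED1, a coactivator in pigment cells, and MLPH, the melanophilin that ties melanosomes to actin motors, had log2 fold changes of 0.59 ± 0.10 (SE) and 0.58 ± 0.11 (SE). Of these 5 genes, BIRC7, EDNRB, CITED1 and MLPH were also called without the 2 myelin-rich libraries, and PAX3 was not (adjusted p = 0.104, or 0.055 with the replicate block).

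RPE genes showed the opposite sign without a call. All 11 tested genes of RPE identity and the visual cycle had a negative log2 fold change, their median was -0.58, and the lowest edgeR adjusted p was 0.136, for SERPINF1, the pigment epithelium derived factor (log2 fold change -0.38 ± 0.13 (SE)). RPE65 was at 1520.5, 2675, 4136 and 6017 CPM at the perimacula and 5429, 4507, 8362 and 7939 CPM at the nasal location (log2 fold change -0.96 ± 0.47 (SE), edgeR adjusted p = 0.282). TTR, the transthyretin that carries retinol binding protein, was at 996, 1563, 1841 and 2183 CPM against 3389, 2860.5, 3334 and 3293 CPM, with separate groups, a log2 fold change of -1.01 ± 0.41 (SE) and an edgeR adjusted p of 0.188. The summed level of the list was 5233, 8587, 11290.0 and 16750.0 CPM at the perimacula and 15660.0, 13430.0, 20950.0 and 19370.0 CPM at the nasal location. It was lowest in the perimacula of the RM03 right eye, which also held the most myelin RNA, and the median difference by eye was -1.42, -0.49, -0.84 and 0.043 on the log2 scale. In the left eye of RM04 the members went both ways, with RPE65 and TTR at -0.40 and -0.59 and STRA6, a retinol uptake receptor, at 0.67. The share of this uneven RPE content in the pigment and other results was not tested.

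Transport and barrier genes of the RPE were mixed. Of 14 transport genes only CA2, the cytosolic carbonic anhydrase, was called (7.14%, against 3.07% of all tested genes). CA2 was at 5.22, 6.27, 19.97 and 15.4 CPM at the perimacula and 1.5, 1.44, 6.35 and 9.02 CPM at the nasal location, with overlap between animals but a higher perimacula in each eye (log2 fold change 1.54 ± 0.29 (SE), edgeR adjusted p = 0.0131, or 0.0661 without the 2 myelin-rich libraries). Its mean level in perimacula retina was 39.3 CPM, and the share of retinal RNA in its RPE/choroid values was not tested. The list's median was -0.28. CA4, the membrane carbonic anhydrase of the choriocapillaris whose symbol has 2 entries and is therefore uncertain, had a log2 fold change of -0.60 ± 0.17 (SE). Of 11 junction genes only CLDN10, a claudin that forms ion-selective pores, was called (9.09%). CLDN10 was at 2.44, 4.46, 11.8 and 12.6 CPM against 13.9, 15.1, 28.7 and 35.9 CPM (log2 fold change -1.74 ± 0.44 (SE), edgeR adjusted p = 0.049, or 0.0711 with the replicate block and 0.326 without the 2 myelin-rich libraries). The median of the junction list was -0.0074, or -0.10 without those libraries, and CDH1 and TJP1, components of epithelial junctions, had log2 fold changes of 0.25 ± 0.11 (SE) and -0.27 ± 0.16 (SE). Other carriers, chosen after their values were seen, were higher at the nasal location, which follows from that choice. SLCO1B3, an organic anion transporter, was at 1.72, 3.12, 13.1 and 7.57 CPM against 18.5, 17.6, 44.7 and 43.2 CPM (log2 fold change -2.49 ± 0.42 (SE), edgeR adjusted p = 0.00782), and SLC4A4, a sodium bicarbonate cotransporter, had a log2 fold change of -0.67 ± 0.13 (SE). CP, the iron oxidase ceruloplasmin, was at 218, 227, 271 and 383 CPM against 568, 639, 569 and 464 CPM (log2 fold change -1.05 ± 0.22 (SE), edgeR adjusted p = 0.0204), with separate groups. None of the 3 was called without the 2 myelin-rich libraries, with adjusted p of 0.125 for SLCO1B3, 0.0713 for SLC4A4 and 0.0979 for CP.

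**Figure D3:**
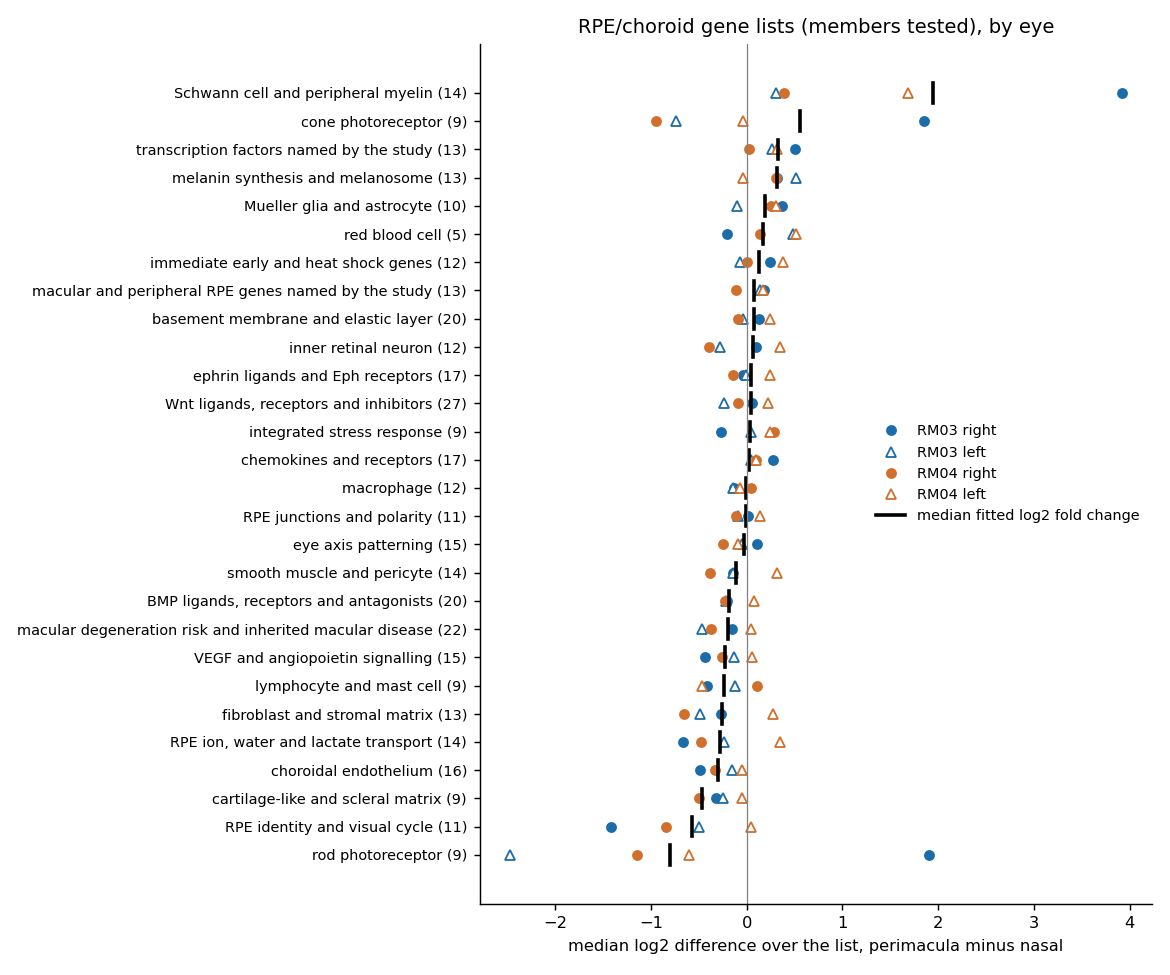
Median log2 difference between the perimacula and the nasal location over the tested members of each of 28 gene lists, by eye (symbols) and from the fit across RPE/choroid libraries (black bars). The Schwann cell list is pulled up by the right eye of RM03 and the left eye of RM04, and the RPE identity list is near 0 in the left eye of RM04 only.

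Vascular genes in the lists mostly had negative log2 fold changes. Of 16 endothelial genes 12 had a negative log2 fold change, the median was -0.30, and only FLT1 was called (6.25%, against 3.07% of all tested genes). FLT1, the VEGF receptor 1, was at 90., 107, 116 and 120.0 CPM at the perimacula and 129, 160.1, 175 and 223 CPM at the nasal location, with separate groups (log2 fold change -0.65 ± 0.14 (SE), edgeR adjusted p = 0.0235, but 0.246 without the 2 myelin-rich libraries). ERG, an endothelial ETS factor, had a log2 fold change of -0.47 ± 0.13 (SE) (edgeR adjusted p = 0.0624), and VWF, the clotting factor of large vessels, one of 0.13 ± 0.14 (SE) (edgeR adjusted p = 0.671). FLT1 was likewise the only call among 15 genes of VEGF and angiopoietin signalling, whose median was -0.23, or -0.13 without those libraries. TEK, the angiopoietin receptor, had a log2 fold change of -0.36 ± 0.11 (SE) and NRP2, a coreceptor, one of 0.19 ± 0.11 (SE). The summed level of the endothelial list was 2433, 2900.0, 2963 and 3509 CPM at the perimacula and 3389, 3278, 3580.0 and 3353 CPM at the nasal location, and these overlapped.

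Endothelial genes outside the lists, chosen after their values were seen, had separate groups and were called higher at the nasal location. Their shared direction and separate groups follow from that choice. ACKR1, a receptor of venular endothelium described below, was called higher at the perimacula (log2 fold change 0.92 ± 0.22 (SE)). PTPRB, a phosphatase that restrains the angiopoietin receptor, was at 157, 181, 172 and 181 CPM at the perimacula and 258, 234, 258 and 233 CPM at the nasal location (log2 fold change -0.51 ± 0.10 (SE)). HEG1, a junctional receptor, was at 281, 338, 298 and 451 CPM against 459, 479.9, 531 and 498 CPM (log2 fold change -0.53 ± 0.12 (SE), adjusted p = 0.0501 with the replicate block). The adhesion receptors ADGRL4 and ADGRF5, the arterial semaphorin SEMA3G and the clotting factor gene F8 had log2 fold changes of -0.57, -0.55, -0.50 and -0.51. None of these 6 was called without the 2 myelin-rich libraries, where their adjusted p ran from 0.0876 to 0.301. RNASE1, a ribonuclease that vessel endothelium secretes and that was named by its p, was at 772, 872, 798 and 809 CPM against 1267, 1059.8, 1200.2 and 1181 CPM (log2 fold change -0.53 ± 0.08 (SE), edgeR adjusted p = 0.00529, or 0.0979 without the 2 libraries). EFNB2, the ephrin ligand of arteries, was at 8.45, 8.63, 10.4 and 11.7 CPM against 14.1, 12.3, 19.3 and 18.5 CPM (log2 fold change -0.70 ± 0.11 (SE), edgeR adjusted p = 0.00562, or 0.0659 without the 2 libraries). It was the only call among 17 ephrin and Eph genes (5.88%), whose median was 0.044, and EFNB1, another ligand, had a log2 fold change of 0.36 ± 0.10 (SE) (edgeR adjusted p = 0.0582).

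RGS5, OGN and LAMA2 were each the single call of a mural, fibroblast or basement membrane list, each higher at the nasal location, and none of them was called without the 2 myelin-rich libraries. RGS5, a regulator of G protein signalling in pericytes, was at 357, 384, 488 and 475 CPM at the perimacula and 685, 628, 671 and 717 CPM at the nasal location, with separate groups (log2 fold change -0.68 ± 0.17 (SE), edgeR adjusted p = 0.0419, or 0.052 with the replicate block and 0.321 without the 2 libraries). It was the only call among 14 smooth muscle and pericyte genes (7.14%, against 3.07% of all tested genes), whose median was -0.11, and MYH11, the smooth muscle myosin, had a log2 fold change of -0.13 ± 0.44 (SE). OGN, a small proteoglycan, was at 593, 516, 704 and 683 CPM against 926, 983, 826 and 1058 CPM (log2 fold change -0.61 ± 0.15 (SE), edgeR adjusted p = 0.0443, or 0.0759 with the replicate block and 0.27 without the 2 libraries), and it was the only call among 13 fibroblast genes (7.69%), whose median was -0.26. DCN, decorin, had a log2 fold change of 0.27 ± 0.35 (SE), which turned to -0.39 without the 2 libraries, and DPT, dermatopontin, one of -0.94 ± 0.29 (SE). LAMA2, a laminin chain of muscle and vessel basement membrane, was at 152, 140.3, 216 and 202 CPM against 207, 224, 324 and 330.1 CPM, lower at the perimacula in each eye (log2 fold change -0.60 ± 0.11 (SE), edgeR adjusted p = 0.0124, or 0.147 without the 2 libraries). It was the only call of 20 basement membrane genes (5%), whose median was 0.072. None of 9 cartilage or scleral matrix genes was called, and their median was -0.46. Without the 2 libraries the medians of the 4 lists were -0.18, -0.49, -0.012 and -0.73.

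BMPR2 and BMP5 of the bone morphogenetic protein pathway were called lower at the perimacula, and neither was called without the 2 myelin-rich libraries. BMPR2, the type II receptor, was at 63.9, 63.2, 52.98 and 57.3 CPM at the perimacula and 81.8, 86.8, 75.7 and 85.8 CPM at the nasal location (log2 fold change -0.48 ± 0.078 (SE), edgeR adjusted p = 0.00782, or 0.0844 without the 2 libraries). BMP5, a ligand, was at 47.2, 49.9, 45.6 and 37.7 CPM against 63.4, 71.8, 61.3 and 68.6 CPM (log2 fold change -0.56 ± 0.13 (SE), edgeR adjusted p = 0.0402, or 0.0586 with the replicate block and 0.346 without the 2 libraries). The groups of both genes were separate. BMP4, the ligand that patterns the dorsal eye, was at 158, 232, 306 and 339 CPM against 383, 336, 410.5 and 402 CPM, which overlapped narrowly, with a log2 fold change of -0.61 ± 0.18 (SE) and no call (edgeR adjusted p = 0.0759). BMPR2 and BMP5 were the called genes among 20 (10.0%, against 3.07% of all tested genes), 14 of which were negative, with a median of -0.19. TGFB2, a related ligand chosen after its values were seen, had a log2 fold change of -0.61 ± 0.10 (SE) (edgeR adjusted p = 0.00782, or 0.0847 without the 2 libraries). None of 27 Wnt genes was called (median 0.044). The Wnt inhibitor SFRP1, at 286, 2.64, 2.55 and 59.6 CPM at the perimacula and 3.12 to 5.59 CPM at the nasal location, was high in the same 2 libraries as the myelin genes, and its log2 fold change of 3.69 turned to -0.78 without them. SFRP4, another Wnt inhibitor, had a log2 fold change of 2.59, which became 0.57 without them.

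Among the lists of immune, blood and retinal markers only ACKR1 and VIM were called, and neither was called without the 2 myelin-rich libraries. None of 12 macrophage genes was called (median -0.0032), nor any of 9 lymphocyte and mast cell genes (median -0.24) or 5 red blood cell genes (median 0.17). ACKR1, a chemokine scavenging receptor of venular endothelium, was at 16.7, 13.97, 81.9 and 116 CPM at the perimacula and 11.4, 9.95, 37.4 and 44.7 CPM at the nasal location, higher at the perimacula in each eye (log2 fold change 0.92 ± 0.22 (SE), edgeR adjusted p = 0.0409, or 0.0707 with the replicate block and 0.273 without the 2 libraries). It was the only call among 17 chemokine genes (5.88%, against 3.07% of all tested genes, median 0.028). No call was made among 9 rod genes (median -0.80), 9 cone genes (median 0.56) or 12 inner retinal genes (median 0.069). Without the 2 libraries these medians were -1.77, -0.58 and -0.40, so that the cone and inner retinal lists changed sign. The median difference of the cone list by eye was 1.85, -0.74, -0.95 and -0.035, positive in the right eye of RM03 alone, and that of the rod list was 1.91, -2.47, -1.15 and -0.60. Summed rod RNA was 109, 47.7, 49.4 and 97.8 CPM at the perimacula and 69.4, 177, 123 and 142 CPM at the nasal location, so the locations overlapped. Of 10 Mueller glia genes only VIM, the intermediate filament vimentin that many choroidal cells also make, was called, at 3304, 2881, 3313 and 2972 CPM against 2219.8, 2161, 2602 and 2503 CPM (log2 fold change 0.40 ± 0.087 (SE), edgeR adjusted p = 0.0287, or 0.0508 with the replicate block and 0.167 without the 2 libraries). The glial filament GFAP was at 141, 7.001, 1.03 and 29.3 CPM against 7.07, 10.9, 0.832 and 1.27 CPM, high in the same perimacula libraries as the myelin genes, with a log2 fold change of 3.35 that turned to -0.22 without them. The list's median was 0.20, or 0.024 without them.

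None of 22 genes of macular degeneration risk or inherited macular disease was called, 16 of them were negative and the median was -0.19, or -0.29 without the 2 myelin-rich libraries. TIMP3, the matrix inhibitor altered in Sorsby fundus dystrophy, was at 2670.3, 3405, 2535 and 4017 CPM at the perimacula and 4765, 4701, 4582 and 4022 CPM at the nasal location (log2 fold change -0.52 ± 0.18 (SE), edgeR adjusted p = 0.127), and LIPC, hepatic lipase, had a log2 fold change of 0.60 ± 0.18 (SE). Among 13 macular and peripheral RPE genes that the study named on samples of this series, GNG11, VIM and PMEL were called higher (23.1%, against 3.07% of all tested genes) and none lower, with a median of 0.077. The study's contrast was fovea/macula against periphery. As the list was chosen on samples of this series, its direction is not independent evidence. None of the 3 was called without the 2 myelin-rich libraries, where the median was 0.017 and the adjusted p was 0.0659, 0.167 and 0.124. GNG11, a G protein gamma subunit, was at 33.3, 37.8, 38.7 and 33.2 CPM against 23.1, 25.6, 25.01 and 29.4 CPM (log2 fold change 0.47 ± 0.10 (SE), edgeR adjusted p = 0.0192), with separate groups. None of 12 immediate early and heat shock genes was called (median 0.12, or 0.015 without the 2 libraries). PHGDH and PSAT1, consecutive enzymes of serine synthesis, were the calls among 9 integrated stress response genes (22.2%, median 0.034), with log2 fold changes of 0.54 ± 0.13 (SE) and 0.62 ± 0.15 (SE) and adjusted p of 0.0737 and 0.0704 with the replicate block, or 0.16 and 0.163 without the 2 libraries. PSAT1 has 5 entries with its symbol and is uncertain.

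List members that the rule named but the test did not call spread to both sides. Among immune and blood markers, CD68 and MRC1 of macrophages had log2 fold changes of -0.39 and -0.33, the lymphocyte genes IL7R, GZMB and PTPRC had -0.45, -0.28 and -0.24, and the red cell genes SLC4A1 and HBB had 0.36 and 0.082. Among photoreceptor genes, SLC24A1 and PDE6B of rods had -0.83 and -0.94, and the cone channel subunits CNGB3 and CNGA3 had -1.18 and 0.57. CNGB3 was at 70.2, 121, 128 and 272 CPM at the perimacula and 310.4, 260.1, 353 and 338 CPM at the nasal location, which overlapped (edgeR adjusted p = 0.175). The inner retinal genes GRM6, PRKCA and RBPMS had log2 fold changes of -1.86, 0.48 and 0.084. In the stroma, ABCC9, a pericyte channel subunit, the cartilage genes ACAN, CHAD and CNMD and the matrix genes FBLN5 and LAMB2 had -0.67, -0.98, -0.78, -0.46, -0.55 and 0.048. The Wnt inhibitor FRZB had -0.0084, the chemokines CX3CL1 and CXCL12 0.27 and 0.028, and the stress genes HSPH1, JUN, DNAJB1 and VLDLR -0.21, 0.24, -0.0012 and -0.025, where DNAJB1 has 2 entries and is uncertain. DRP2, a Schwann cell protein at 319, 0.621, 0.348 and 93.4 CPM against 0.5001, 0.749, 0.708 and 1.64 CPM, had a log2 fold change of 6.40 ± 1.69 (SE) (edgeR adjusted p = 0.0571, or 0.78 without the 2 myelin-rich libraries).

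Genes with the smallest p at the perimacula were of varied function. SPHKAP (ENSMMUG00000013254), an anchoring protein for protein kinase A, was at 28.1, 29.2, 19.2 and 17.5 CPM at the perimacula and 2.59, 3.17, 3.19 and 1.36 CPM at the nasal location, a 9.11-fold difference (log2 fold change 3.19 ± 0.40 (SE), edgeR adjusted p = 0.00278). FAM69C (ENSMMUG00000015702), a membrane protein of the endoplasmic reticulum, was at 10.8, 11.97, 9.19 and 7.62 CPM against 4.66, 5.44, 3.61 and 2.83 CPM (log2 fold change 1.28 ± 0.14 (SE), edgeR adjusted p = 0.00278). The groups of both genes were separate. ZBTB47, a zinc finger protein, was at 166, 158, 191 and 189 CPM against 119, 115, 132 and 130.1 CPM, a step of 0.50 ± 0.058 (SE) on the log2 scale (edgeR adjusted p = 0.00278). IGSF8, a tetraspanin partner, was at 108, 90.97, 121 and 108 CPM against 45.5, 50.6, 61.4 and 66.5 CPM (log2 fold change 0.94 ± 0.12 (SE)). HSF4, a heat shock factor best known in the lens, was at 38.6, 39.2, 66.6 and 56.4 CPM against 24.7, 22.4, 26.2 and 30.2 CPM (log2 fold change 0.93 ± 0.13 (SE)). In SLC22A17, a receptor for lipocalin 2, MICAL1, which oxidizes actin, CLCN7, the chloride transporter of lysosomes, EFHD1, a mitochondrial calcium binding protein, ACTR1B, a dynactin subunit, H1FX, a linker histone, and LRRN4CL, the log2 fold changes ran from 0.54 to 0.89, with edgeR adjusted p between 0.00278 and 0.00345. Each of the 15 genes had the same direction in 4 of 4 eyes and separate groups. Of the 15789 tested genes, 5504 had the same direction in 4 of 4 eyes and 1838 had separate groups. As the 15 were chosen by lowest p in these libraries, their agreement over eyes largely follows from the choice. Each was also called with the replicate block and without the 2 myelin-rich libraries. In perimacula retina the mean levels of SPHKAP, FAM69C and ZBTB47 were 48.0, 8.39 and 80.3 CPM. The share of retinal RNA in the RPE/choroid values of the 15 genes was not tested.

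At the nasal location the genes with the smallest p were also of varied function. AHR, the aryl hydrocarbon receptor, was at 13.9, 11.8, 16.2 and 19.2 CPM at the perimacula and 20.9, 22.4, 29.6 and 30.6 CPM at the nasal location (log2 fold change -0.76 ± 0.10 (SE), edgeR adjusted p = 0.00345), with separate groups. HIF1A, the oxygen-regulated factor, was at 258, 237, 169.5 and 149 CPM against 347, 335, 228 and 223 CPM (log2 fold change -0.48 ± 0.07 (SE), edgeR adjusted p = 0.00408). HIF1A fell at the perimacula in each eye, but the animals overlapped. PRUNE2, a protein with a lipid-binding domain, was at 2.03, 1.13, 3.02 and 2.94 CPM against 5.37, 8.33, 10.3 and 10.8 CPM (log2 fold change -1.98 ± 0.24 (SE), edgeR adjusted p = 0.00278), and VWDE, a secreted protein with von Willebrand and EGF domains, at 1.97, 2.53, 3.09 and 3.35 CPM against 5.32, 5.26, 10.2 and 10.2 CPM (log2 fold change -1.44 ± 0.18 (SE)). The chromatin and transcription genes PHC3, ATXN7 and MED21 had log2 fold changes of -0.62, -0.45 and -0.49, and GORASP2, a Golgi stacking protein, TMTC1, a mannosyltransferase, and KIAA1551 had -0.31, -0.54 and -0.52. Of the 15 nasal genes named by p, PRUNE2, AHR and MAB21L1 were also called without the 2 myelin-rich libraries. The others were not, with adjusted p from 0.0564 for VWDE to 0.128 for TMTC1. In nasal retina the mean levels of AHR, HIF1A, PRUNE2 and VWDE were 24.8, 258, 101 and 0.904 CPM. The share of retinal RNA in their RPE/choroid values was not tested.

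A few other genes were also chosen after their values were seen. GDNF, the glial cell line derived neurotrophic factor, was at 1.07, 1.06, 6.503 and 6.72 CPM at the perimacula and 0.546, 0.335, 1.31 and 1.53 CPM at the nasal location, higher at the perimacula in each eye with overlap between the animals (log2 fold change 1.81 ± 0.42 (SE), edgeR adjusted p = 0.0359, or 0.0555 with the replicate block and 0.169 without the 2 myelin-rich libraries). TIMP2, a metalloproteinase inhibitor, was at 539.6, 543, 670.2 and 581 CPM against 312, 372, 435 and 414 CPM (log2 fold change 0.61 ± 0.10 (SE), edgeR adjusted p = 0.00674, or 0.0525 without the 2 libraries). CD63, a tetraspanin of lysosomes and melanosomes, GJB2, connexin 26, and RORB, an orphan receptor of neurons, had log2 fold changes of 0.43 ± 0.10 (SE), 1.73 ± 0.36 (SE) and -0.50 ± 0.11 (SE), and their adjusted p was 0.0876, 0.0917 and 0.323 without the 2 libraries.

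The other RPE/choroid locations placed these genes on different gradients. EBF3 was at 0.0855 to 0.689 CPM in the 4 fovea/macula libraries and 0.614 to 1.21 CPM in the 4 periphery libraries, below each perimacula library. SPHKAP was at 10.4 to 17.1 CPM at the fovea/macula and 1.61 to 5.61 CPM at the periphery, so that each fovea/macula library lay above each nasal library. FAM69C and BIRC7 reached 8.08 to 16.6 CPM and 43.3 to 79.5 CPM at the periphery and 3.897 to 8.15 CPM and 22.7 to 39.2 CPM at the fovea/macula, and the nasal range was the lowest of the 4 locations in mean. AHR was at 14.5 to 23.1 CPM at the fovea/macula and 8.54 to 14.5 CPM at the periphery, with the nasal mean of 25.9 ± 4.95 CPM (SD, n = 4) above the others. MAB21L1 at 0.7695 to 2.35 CPM and 8.24 to 20.9 CPM was low at the fovea/macula and high at the periphery. Differences from the fovea/macula and periphery were not tested here, and the periphery was sequenced on another flow cell.

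**Figure D4:**
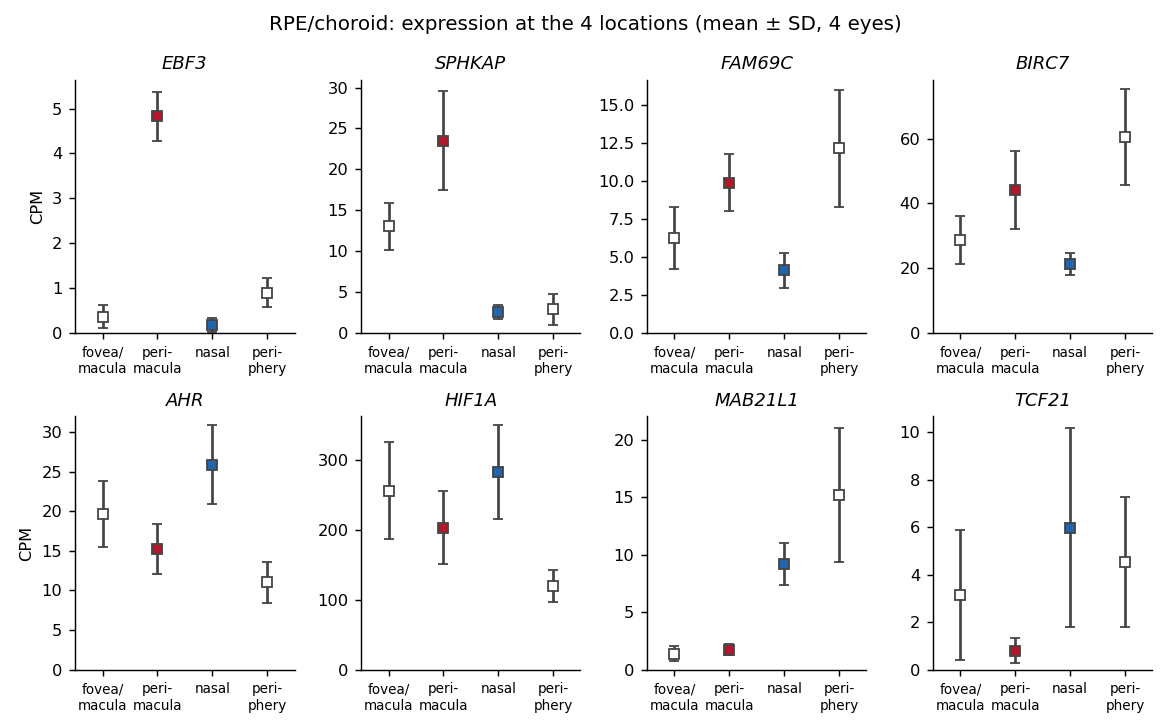
Mean CPM and SD over 4 eyes of 8 genes at each RPE/choroid location, with the perimacula in red and the nasal location in blue. EBF3 and SPHKAP have their highest mean at the perimacula, AHR, HIF1A and TCF21 at the nasal location, and FAM69C, BIRC7 and MAB21L1 at the periphery.

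Whether the neural retina of the same punches showed the same steps was tested as a difference between the tissues in a fit of 32 libraries. Of 16382 genes tested, 296 (1.81%) were called with edgeR, 192 with a more positive change in RPE/choroid and 104 with a more negative one, and 115 of the 296 were also among the 484 called in RPE/choroid. The lowest p belonged to FOXD1. In retina FOXD1 was at 2.23 to 7.45 CPM at the perimacula and 0.0294 to 0.137 CPM at the nasal location (log2 fold change 6.09 ± 0.45 (SE), edgeR adjusted p = 9.91e-09), whereas RPE/choroid changed by 0.59 ± 0.23 (SE). The tissue difference was -5.49 ± 0.55 (SE) with an edgeR adjusted p of 6.28e-06. EBF3 and MAB21L1 were present in retina at 17.3 to 30.8 CPM and 80.01 to 83.5 CPM at the perimacula but changed there by 0.46 ± 0.31 (SE) and -0.055 ± 0.21 (SE). Their tissue differences were 4.26 ± 0.53 (SE) and -2.31 ± 0.32 (SE), with edgeR adjusted p of 4.74e-05 and 1.73e-04.

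Some genes moved in opposite directions in the tissues. SPP1, the matrix protein osteopontin, was at 1149, 1095, 2801 and 2087 CPM at the perimacula and 627, 648, 1717 and 1962 CPM at the nasal location of RPE/choroid (log2 fold change 0.60 ± 0.13 (SE), edgeR adjusted p = 0.0276, or 0.0531 with the replicate block and 0.0858 without the 2 myelin-rich libraries). In retina it was at 219 to 388 CPM against 526 to 661 CPM (log2 fold change -1.11 ± 0.14 (SE), edgeR adjusted p = 1.89e-04), and the tissue difference was 1.72 ± 0.20 (SE). RAB13, a small GTPase of junction trafficking, changed by 0.33 ± 0.056 (SE) in RPE/choroid and -0.52 ± 0.068 (SE) in retina, a difference of 0.86 ± 0.094 (SE) (edgeR adjusted p = 8.39e-06). ZBTB47 likewise changed by 0.50 ± 0.058 (SE) and -0.32 ± 0.063 (SE), a difference of 0.83 ± 0.089 (SE) (edgeR adjusted p = 8.39e-06). FAM69C, PRUNE2, AHR and TCF21, called in RPE/choroid, had tissue differences of 1.57, -2.34, -0.97 and -2.88, while their retinal changes had edgeR adjusted p from 0.394 to 0.986. GPR143 had nearly the same log2 fold change in retina, 1.00 ± 0.20 (SE), and a tissue difference of 0.025 ± 0.27 (SE) (edgeR adjusted p = 0.983). Its level in retina was low, at 0.966 to 2.01 CPM at the perimacula and 0.747 to 0.971 CPM at the nasal location. The RPE/choroid means were 53.8 and 26.7 CPM, and the share of RPE RNA in the retinal values was not tested.

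**Figure D5:**
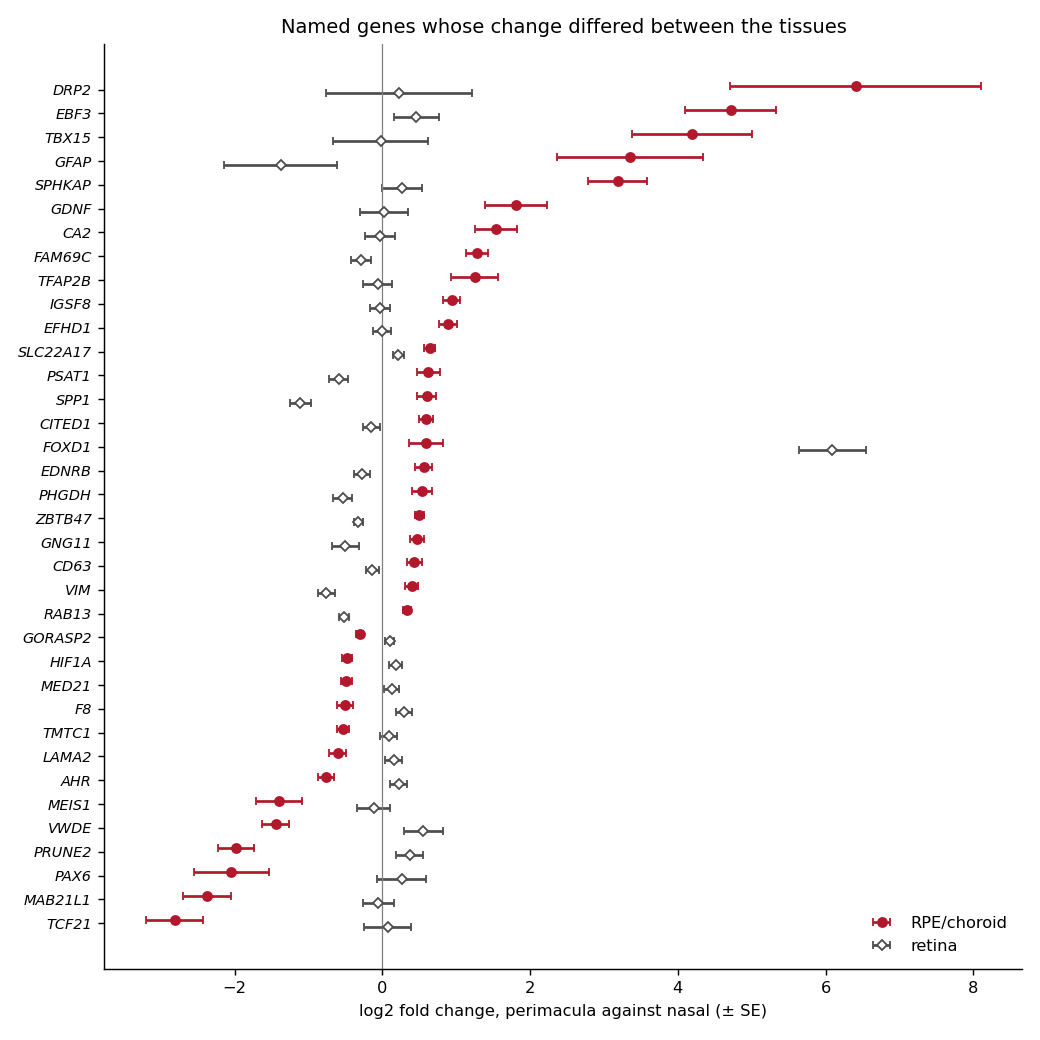
Log2 fold change of the perimacula against the nasal location, with its SE, in RPE/choroid (red circles) and retina (open diamonds) for the 36 named genes whose tissue difference was called. RPE/choroid values come from the fit of 16 RPE/choroid libraries and retinal values from the fit of 32 libraries. FOXD1 changed mainly in retina, and most of the others lie near 0 in retina.

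The test for a difference in the steps between the animals had 2 eyes per animal. Few calls therefore do not show that the steps were alike. SHOX2, for example, had an estimated difference of 3.87 on the log2 scale (RM03 minus RM04) without a call. No gene of 15789 was called with edgeR for a difference in the change between RM03 and RM04, 395 had an unadjusted p under 0.05, DESeq2 called 21 and limma with quality weights called 0. The animals differed more than the locations did over the genes that varied most among these 8 libraries. Distances between the animals over all tested genes are not given here. Over the 1000 most variable genes the root mean square distance between the perimacula and nasal libraries of the same eye was 1.98 ± 0.31 log2 units (SD, n = 4 eyes). It was 1.70 ± 0.169 between nasal libraries of fellow eyes and 1.82 ± 0.322 between perimacula libraries of fellow eyes (SD, n = 2 pairs each), ranges that overlap the former. Distances between the animals were 2.84 ± 0.155 at the perimacula and 2.95 ± 0.0763 at the nasal location (SD, 4 pairs each, which share libraries).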

How the data were processed

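RNA from 2 mm punches was sequenced by the authors as poly-A libraries. Salmon 0.13 with Mmul_8.0.1 and a gene summary by tximport gave the estimated counts, scaled for transcript length, that the authors deposited for each lane under the heading TPM. They were read as counts since lane totals differ, from 9156441 to 13848029 in the 40 lanes used. Per library, lane values were added up and rounded, 10 repeated identifiers were dropped, and 19422 genes remained. Symbols are those in the deposited files, and a symbol with several entries was read from the best supported entry. Total depth of 47431833 to 66331817 counts sets the precision, and RNA-seq without molecular identifiers gives counting error only as a lower limit.

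The test was edgeR 4.0.16 (quasi-likelihood, TMM, filterByExpr at a minimum count of 10, R 4.3.3) on the 16 RPE/choroid libraries with location and animal as terms, so that fovea/macula and periphery libraries shared the estimate of spread, with Benjamini-Hochberg adjustment over tested genes at 0.05. Differences between tissues and animals were interaction terms. Replicates are the eyes of 2 animals, so p-values mostly measure the spread between these eyes. On simulated data for the main comparison, with 15789 genes of which 200 changed by 1.5 on the log2 scale, 87% of these were recovered and 3.33% of calls were false. The simulated libraries had no animal effect and none that stood apart in a set of genes. Called genes in the real data had a median absolute log2 fold change of 0.455. The simulation checks that the fit runs as intended and does not give the power or the share of false calls here. CPM and distances used a prior count of 2 for log2 values, with numpy 2.4.6, pandas 2.3.3 and matplotlib 3.10.9 under Python 3.11.15.

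The libraries of the same eye are paired by design, as both punches came from that eye. Deviations from the location means correlated at 0.411 to 0.583 within eyes and 0.488 to 0.578 between fellow eyes. With the animal mean removed, the correlation within eyes was -0.131 in RM03 and 0.0418 in RM04.

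Named genes were up to 15 called genes in each direction by p, and of 28 gene lists each called member, the 2 with the lowest p and the one with the highest mean CPM, and up to 5 genes in each direction of the tissue difference. Some genes that this rule names are not reported here. Another 23 are marked as chosen after their values were seen. MITF, MYO7A and STRA6 are list members given outside the rule and are not among those marked. The members, lists and tests were chosen with earlier results of these data known. Alternatives were DESeq2 1.42.0, limma 3.58.1 with quality weights, RLE normalization, other filters, a replicate block, single flow cells, other sets of libraries and leaving out each eye. Leaving out the 2 myelin-rich libraries was added after seeing the data. Some genes are not analysed here. Sequences and coordinates were not used here, and whether reads were counted by strand is not given in the sources used here.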

Additional observations from a re-analysis of the deposited data

Results flagged for a closer look

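Eyes apart from the other 3 were found in 5 of 254 groups of 4 named-gene values, where chance flags about 1 in 20. These were the lowest nasal value of TTR at 11.48 log2 CPM, the lowest perimacula value of IL7R at 4.721, the lowest nasal value of HBB at 7.466, the highest nasal value of JUN at 6.01 and the highest perimacula value of RORB at 4.633.

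The change from nasal to perimacula differed between RPE/choroid and retina for 296 genes by edgeR's interaction term at an adjusted p under 0.05. The difference of the log2 fold changes was positive for FAM69C (1.57), ZBTB47 (0.83), SLC22A17 (0.43), SPHKAP (2.93), IGSF8 (0.98), EBF3 (4.26), EFHD1 (0.90), CA2 (1.55), DRP2 (6.18), VIM (1.16), GFAP (4.72), GNG11 (0.98), PSAT1 (1.22), PHGDH (1.08), RAB13 (0.86), SPP1 (1.72), EDNRB (0.85), CITED1 (0.75), TFAP2B (1.32), TBX15 (4.20), GDNF (1.80) and CD63 (0.58). It was negative for PRUNE2 (-2.34), VWDE (-1.99), AHR (-0.97), TCF21 (-2.88), MAB21L1 (-2.31), HIF1A (-0.65), MED21 (-0.61), TMTC1 (-0.62), GORASP2 (-0.40), PAX6 (-2.30), LAMA2 (-0.75), FOXD1 (-5.49), MEIS1 (-1.27) and F8 (-0.79). For DRP2 and GFAP the RPE/choroid values were high in the 2 myelin-rich perimacula libraries, and without those libraries the differences were -1.43 and 1.15, with edgeR adjusted p of 0.613 and 0.643. For FOXD1 the change in retina was the larger one.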

How the results depend on the processing

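None of the 484 called genes changed direction under the alternatives run, and of the 296 tissue differences 1 did, that of DRP2, at -1.43 without the 2 myelin-rich libraries. Called genes in the comparison of RPE/choroid, 484, became 1247 with DESeq2, 2203 with limma and quality weights, 269 with the eye as a replicate block, 53 without the animal term, 1677 with only the perimacula and nasal libraries, 1897 with the 12 libraries of the shared flow cells and 43 without the 2 myelin-rich perimacula libraries, and 19 to 195 when an eye was left out, lowest without the right eye of RM03. They stayed within 1.5 times with RLE normalization (485), no filter (399), at least 10 counts in every library (579) and each flow cell alone (402 and 424). The share called higher at the perimacula moved from 61.8% to 55.7% with DESeq2, 50.3% with limma, 49.2% with only the perimacula and nasal libraries, 48.1% with the shared flow cells, 77.4% without the animal term, 90.7% without the myelin-rich libraries and 57.9% to 84.6% when an eye was left out, and was 60.8% to 68.9% under the others. The 296 tissue differences became 718 with DESeq2, 655 with limma, 628 with only the perimacula and nasal libraries, 953 with the shared flow cells, 95 without the myelin-rich libraries and 38 to 218 when an eye was left out, and 224 with the replicate block. The animal difference, 0 calls, gave 21 with DESeq2, 1 with the shared flow cells and 0 to 2 when an eye was left out, and 0 with the replicate block. The distance within an eye, 1.98 log2 units, was 0.697 over all tested genes and 2.79 at a prior count of 0.25, and 1.83 to 2.07 when an eye was left out. Of single-gene values under alternatives, 2036 kept direction and side of the threshold, 453 lost a call, 73 gained one and 1 reversed. Of list medians, 456 moved by less than their spread between eyes and 8 by more. The replicate block ended the call of 19 genes named, with the adjusted p beside each. What moved these counts was not tested. Values of EBF3 at the nasal location rest on few counts.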

Other observations

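Ribosomal protein entries, a list chosen after seeing the data, leaned toward the perimacula. Of 119 tested entries with such symbols 98 had a positive log2 fold change and 10 were called higher at the perimacula (8.40%, against 1.89% of all tested genes) and none lower, with a median of 0.12. The median difference by eye was 0.14, 0.15, 0.12 and 0.10, so each eye showed the sign, and the median was 0.11 without the 2 myelin-rich perimacula libraries, although no entry was called in that smaller fit. Many of these entries share a symbol with near-identical copies, so single entries are uncertain.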
